A study of Mus musculus with 4 samples.

Results

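Macrophages exposed to extracellular vesicles (EVs) carrying a miR-93 mimic were compared with macrophages exposed to EVs carrying a miR-17 mimic, across every gene of the deposited table. The 2 libraries, of 4 in the series, were chosen by their labels and not by any measured value. Of 38087 genes in the table, 15465 averaged 20 or more normalized counts over both mimic libraries and are called measured. The cells were bone marrow-derived macrophages of C57BL/6 mice aged 6 to 8 weeks, differentiated over 5 to 7 days with 30% medium conditioned by L929 cells, a source of the growth factor CSF-1. The EVs came from Beas2B, a line of human lung epithelial cells, transfected with the miR-93 mimic (miR-93 EV), the miR-17 mimic (miR-17 EV) or a scrambled control RNA (control EV), and contact lasted 16 h. The remaining library was from cells that met no EVs (unexposed). Each library held RNA pooled from 4 biological replicates, so every group was 1 library with no replicate check. Ratios below therefore compare libraries and not conditions, and no test or p-value is given. The labels used here give neither the EV dose nor the amount of mimic per EV, nor which strand each mimic delivers.

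MicroRNAs guide Argonaute proteins to messenger RNAs, mainly by pairing of a short 5′ stretch, the seed, with sites in 3′ untranslated regions (UTRs), and paired messages are repressed or degraded. miR-17 and miR-93 are products of paralogous clusters, one within the transcript Mir17hg and one within an intron of Mcm7, a replication helicase gene. Both belong to one seed family, which is known for repressing cell cycle inhibitors, TGF-beta receptors and, in macrophages, the cholesterol exporter Abca1. EVs are membrane particles that cells release and that can carry small RNAs into phagocytes.

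The mature sequences show what the 2 cargoes share and where they part, with the seed (bases 2 to 8) in capitals. They are RefSeq's mouse sequences on GRCm38.p6, written 5′ to 3′.
miR-93-5p: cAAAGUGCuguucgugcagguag
miR-17-5p: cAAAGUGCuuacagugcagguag
miR-93-3p: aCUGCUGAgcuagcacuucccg
miR-17-3p: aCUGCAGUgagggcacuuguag
The 5p strands carried the same seed and were identical at 19 of 23 bases. Counted from 1 at the 5′ end, with the miR-17-5p base first and the miR-93-5p base last, the differences were U10G, A11U, C12U and A13C, all in the middle of the strand. The 3p strands had different seeds. In the genome, miR-93-5p lies at chr5:138165574-138165596 on the minus strand and miR-17-5p at chr14:115043684-115043706 on the plus strand.

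Depth was nearly equal in the pair. The miR-93 EV library held 22247527 reads in genes and the miR-17 EV library 22607247, against 17815250 in control EV and 19705482 in unexposed. Aligned bases per read, as a median over genes, were 98.7 in miR-93 EV and 96.4 in miR-17 EV, while control EV had 114 and unexposed 103. The macrophage label held in all 4 libraries. Of 26 macrophage genes 25 were measured, with a median log2 ratio of −0.0019. Emr1, which encodes the macrophage marker F4/80, had 55935 normalized counts in miR-93 EV and 58277 in miR-17 EV, with 59808 in control EV and 59258 in unexposed. Sfpi1, which encodes the myeloid factor PU.1, had 8934 in miR-93 EV and 8990 in miR-17 EV, with 9794 in control EV and 10525 in unexposed. Emr1 and Sfpi1 were picked as defining markers after their values were seen.

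The mimic libraries were close to each other over the whole transcriptome. The median log2 ratio of miR-93 EV over miR-17 EV was 0.00031 over the 15465 measured genes, and its quartiles were −0.089 and 0.092. Within 1.5-fold of each other were 97.4% of measured genes, and within 1.2-fold 85.0%. By any amount, 7751 genes were higher in miR-93 EV and 7714 were lower. Among genes with a mean of at least 1000 normalized counts, the standard deviation of the log2 ratio was 0.0897, against 0.241 for miR-93 EV over control EV and 0.244 for miR-17 EV over control EV. Over unexposed it was 0.155 for miR-93 EV, 0.150 for miR-17 EV and 0.208 for control EV. All these pairs draw on the same few libraries, so the values stand side by side as a description. The 5 most counted genes, all of lysosomes, antimicrobial defence or iron storage, had log2 ratios of 0.047 for Lyz2, −0.0065 for Fth1, 0.061 for Psap, 0.0070 for Ctsb and 0.088 for Ctsd. The spread between the mimic libraries narrowed with level, with a standard deviation of 0.403 for genes of 20 to 50 normalized counts, 0.192 for 100 to 300 and 0.0879 for 1000 to 3000.

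**Figure D1:**
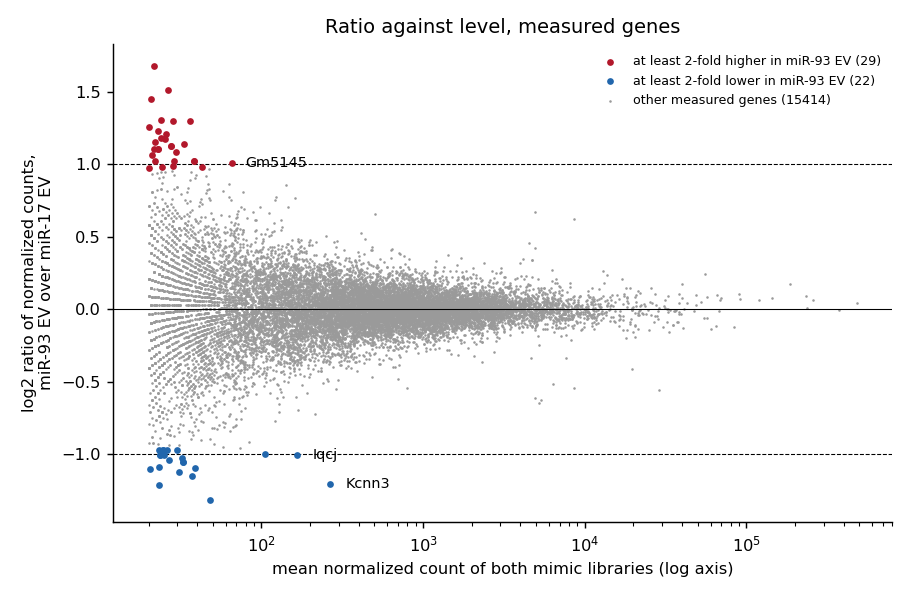
Log2 ratio of normalized counts in miR-93 EV over miR-17 EV (vertical axis) against the mean normalized count of both libraries (horizontal log axis), 1 point per measured gene. Dashed lines mark 2-fold. The 29 higher genes (red) and 22 lower genes (blue) lie mostly at the left edge, and Kcnn3 and Iqcj stand apart below at higher levels.

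Ratios are given with a 95% exact interval for counting error. Nothing else is covered by it, and differences between cultures, EV preparations or libraries lie outside it. PCR copies, which were not marked with molecular identifiers, are not covered either. A call needed a difference of 2-fold or more, a mean of 20 or more normalized counts and an interval that excluded 1. In miR-93 EV, 29 genes were higher (0.188% of measured genes) and 22 were lower (0.142%). The same rule called 1.58% of genes for miR-93 EV against control EV, 1.65% for miR-17 EV against control EV and 0.330% for the pair. Against unexposed it called 0.656% for miR-93 EV, 0.604% for miR-17 EV and 1.41% for control EV. Control EV thus stood apart from unexposed as well as from the mimic libraries. Of the 29 higher genes, 22 were protein-coding and 28 had a mean under 50 normalized counts. Of the 22 lower genes, 15 were protein-coding and 19 had a mean under 50, while 3 had a mean of at least 100. The authors' deposited log2 values had the same direction for 26 of the 29 higher and 16 of the 22 lower genes, and showed no difference for the rest.

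Kcnn3 and Iqcj were the named protein-coding genes past 2-fold that averaged 50 or more normalized counts, and both were lower in miR-93 EV. Kcnn3 (ENSMUSG00000000794, chr3:89520164-89667761) encodes a small-conductance potassium channel opened by calcium. It had 159 normalized counts in miR-93 EV and 368 in miR-17 EV, with 151 in control EV and 408 in unexposed. The miR-93 EV value was near that of control EV, and the miR-17 EV value was near that of unexposed. The ratio of miR-93 EV to miR-17 EV was 0.433 (95% interval 0.361 to 0.517), the log2 ratio was −1.20, and the authors' deposited values differed by −1.22. Iqcj (chr3:67892220-68056593), a gene with an IQ motif, had 110 in miR-93 EV and 223 in miR-17 EV, with 210 in control EV and 211 in unexposed. Here the miR-93 EV library alone was low. The ratio was 0.496 (0.396 to 0.618). The authors' deposited values for Iqcj showed no difference between the mimic libraries.

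The other calls were mostly of genes with few reads, and the genes given here were picked after their values were seen. Besides Kcnn3 and Iqcj, the lower call that averaged over 100 normalized counts was the annotated miRNA gene Mir5109, with 69.7 in miR-93 EV and 140 in miR-17 EV, and 46.8 in control EV and 116 in unexposed. Gm5145 had 88.7 normalized counts in miR-93 EV and 43.5 in miR-17 EV, with 51.5 in control EV and 95.9 in unexposed, and it was the higher call with the most counts. Zbtb16, which encodes the transcription factor PLZF, had 57.0 in miR-93 EV and 28.4 in miR-17 EV, with 39.8 in control EV and 30.6 in unexposed. Cbx2, which encodes a Polycomb chromobox protein, had 51.6 in miR-93 EV and 24.8 in miR-17 EV, with 44.5 in control EV and 34.8 in unexposed. Hrh1, the histamine H1 receptor gene, had 30.8 in miR-93 EV and 13.3 in miR-17 EV, with 26.9 in control EV and 22.1 in unexposed. For Zbtb16, Cbx2 and Hrh1 the mimic libraries were the highest and the lowest of the 4. That held for 16 of the 29 higher genes. It also held for 11 of the 22 lower genes, among them Arc, a neuronal immediate early gene, with 16.3 in miR-93 EV and 33.7 in miR-17 EV, and 32.8 in control EV and 24.2 in unexposed. A call asked for a wide gap within the pair, which by itself favours this order. The share of all measured genes with this order was not counted, so these counts say nothing about the cargoes.

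Beyond 2-fold calls, a wider look at well-counted genes used a rule set after the values were seen, a difference of 1.4-fold or more at 200 or more normalized counts with an interval that excluded 1. It gave 19 genes, 6 higher and 13 lower in miR-93 EV, of which 11 were protein-coding. Cobl, an actin nucleator, had 160 in miR-93 EV and 265 in miR-17 EV, with 111 in control EV and 271 in unexposed. F13a1, which encodes the A subunit of coagulation factor XIII and marks alternatively activated macrophages, had 487 in miR-93 EV and 338 in miR-17 EV, with 668 in control EV and 543 in unexposed. Its ratio was 1.44 (1.26 to 1.65). Epb4.1l3, a membrane skeleton gene, had 510 in miR-93 EV and 364 in miR-17 EV, with 472 in control EV and 554 in unexposed. For F13a1 and Epb4.1l3 the miR-17 EV value was the lowest of the 4 libraries.

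Some of the most highly counted genes also differed by this rule. Lrrk1, a kinase gene known from osteoclasts, had 4188 normalized counts in miR-93 EV and 6468 in miR-17 EV, with 3398 in control EV and 5848 in unexposed. Il31ra, an interleukin-31 receptor gene, had 6998 in miR-93 EV and 10214 in miR-17 EV, with 5958 in control EV and 9460 in unexposed. Gnb1l, which encodes a WD repeat protein, had 23336 in miR-93 EV and 34308 in miR-17 EV, with 16995 in control EV and 28046 in unexposed. In each of these the miR-93 EV and control EV values were both below those of miR-17 EV and unexposed. That order was seen in 11 of the 13 genes lower by this rule and in 25.8% of all 7714 measured genes that were lower in miR-93 EV by any amount. The rule asked for a wide gap within the pair, which leaves more room for that order, so these shares are not like for like. Kpna1, an importin gene, had 5256 in miR-93 EV and 7515 in miR-17 EV, but its span overlaps that of Gm15564, with 4066 in miR-93 EV and 6355 in miR-17 EV, so their reads cannot be told apart. Counts covered whole gene spans, introns included, so where in Lrrk1, Il31ra or Gnb1l the reads lie is not known. The authors' deposited log2 values did not show these differences. For Il31ra, Cobl and Lrrk1 they differed by 0, 0 and 0.014, and for Gnb1l by 0.79, the opposite direction.

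**Figure D2:**
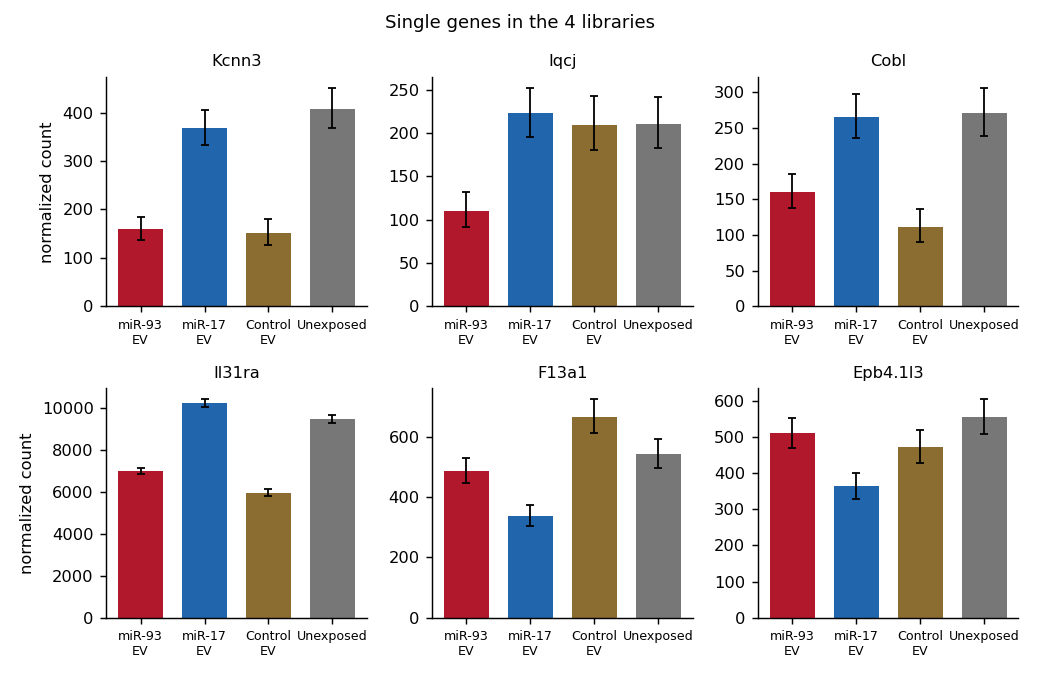
Normalized counts (vertical axes, from 0) of 6 genes in miR-93 EV, miR-17 EV, control EV and unexposed, 1 bar per library, with bars for the 95% exact Poisson interval of the reads. Kcnn3, Cobl and Il31ra are low in miR-93 EV and control EV, Iqcj is lowest in miR-93 EV, and F13a1 and Epb4.1l3 are lowest in miR-17 EV.

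The 5p strands share a seed, and whether the cargoes differed on genes with seed matches was examined next. A match was GCACTTT, the complement of bases 2 to 8, in the longest 3′ UTR annotated in GENCODE M21, searched on the sense strand. With an A after it, GCACTTTA, it is an 8-mer, the strongest class. CACTTTA without the preceding G was kept as a weaker class, and each gene was placed by its strongest match. A UTR was found for 12237 measured genes, 96.3% of the protein-coding ones, and 15.3% of them held a match to bases 2 to 8. Matches are a description of letters and not sites shown to be bound. Sites in 5 genes reported as targets of the family are shown as the 30 bases that end with the site, 5′ to 3′ in the sense of the transcript on mm10, with the 8-mer in capitals. They are the 8-mer genes with the most reads on a list of reported targets.
Sqstm1: aacctgtaataaaatggcatatGCACTTTA
Abca1: ttatcattggccctcattccaaGCACTTTA
Txnip: tgattctaaggtgatgttcttaGCACTTTA
Mink1: gaccattcctcattttctgaaaGCACTTTA
Tgfbr2: tttacaacagccaataacgtttGCACTTTA
These lie at chr11:50200156-50200185 on the minus strand, chr4:53031005-53031034 on the minus strand, chr3:96561219-96561248 on the plus strand, chr11:70614189-70614218 on the plus strand and chr9:116090073-116090102 on the minus strand, in that order.

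None of these 5 genes differed by more than 1.2-fold between the cargoes. Abca1, the ATP-binding cassette cholesterol exporter, had 7325 normalized counts in miR-93 EV and 6565 in miR-17 EV, with 6480 in control EV and 8979 in unexposed. The ratio was 1.12 (1.08 to 1.15), so Abca1 was higher in miR-93 EV, and both mimic libraries were below unexposed and above control EV. Sqstm1, the autophagy receptor p62, had 31108 in miR-93 EV and 33005 in miR-17 EV, with 30708 in control EV and 31375 in unexposed. Its ratio was 0.942 (0.929 to 0.956), lower in miR-93 EV. Txnip, the thioredoxin-interacting protein gene, had 5670 in miR-93 EV and 5561 in miR-17 EV, with 6438 in control EV and 5948 in unexposed. Tgfbr2, the type II TGF-beta receptor gene, had 3617 in miR-93 EV and 3465 in miR-17 EV, with 4353 in control EV and 4189 in unexposed. Mink1, a kinase gene, had 3751 in miR-93 EV and 3791 in miR-17 EV, with 3830 in control EV and 4256 in unexposed. For Txnip, Mink1 and Tgfbr2 the interval of the ratio of the pair included 1, at 0.984 to 1.06, 0.948 to 1.03 and 0.999 to 1.09.

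Across all genes the classes of match gave nearly the same ratios. The median log2 ratio was 0.0017 for 559 genes with an 8-mer, −0.0085 for 1311 with a 7-mer match to bases 2 to 8, 0.00027 for 943 with the weaker match, and −0.00079 for 9424 with none. Of the 8-mer genes, 41 were higher in miR-93 EV and 49 lower with intervals that excluded 1, or 7.33% and 8.77%. Of the 7-mer genes 78 were higher and 127 lower, or 5.95% and 9.69%, and of the genes with no match 812 were higher and 830 lower, or 8.62% and 8.81%. Genes with a match had longer UTRs, with medians of 2845 bases for the 8-mer class and 1096 for genes with none. For 29 genes with CACG, the complement of bases 13 to 16 of miR-93-5p, and not CACT in a short stretch just upstream of a match, the median was −0.0029. For 137 genes with CACT, the miR-17-5p counterpart, and not CACG it was −0.027, with 53 higher and 84 lower in miR-93 EV by any amount. With intervals that excluded 1, 5.84% of the 137 were higher and 10.2% lower, near the shares of the 7-mer class.

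**Figure D3:**
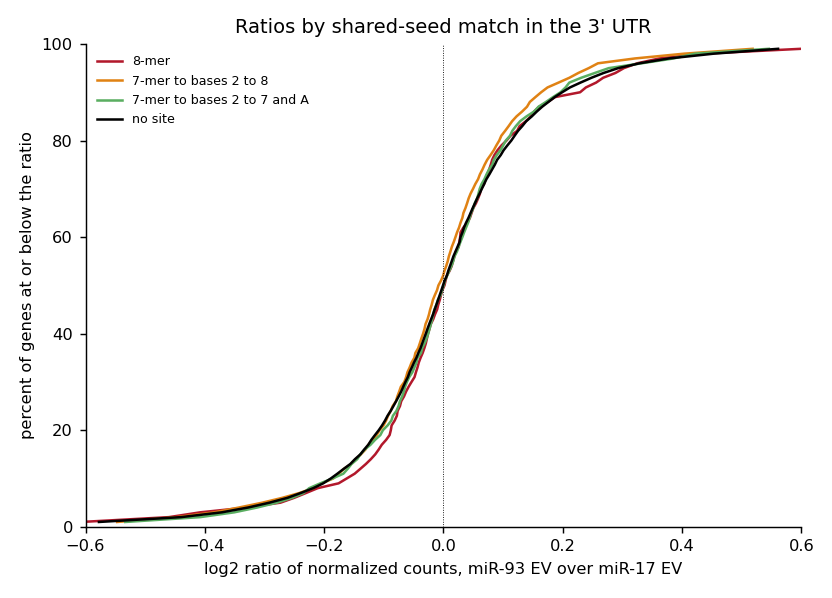
Percent of genes at or below a given log2 ratio of miR-93 EV over miR-17 EV, for genes whose 3′ UTR holds an 8-mer (559 genes), a 7-mer match to bases 2 to 8 (1311), a match to bases 2 to 7 followed by A (943) or no match (9424). The 4 curves run close together through the middle, near a log2 ratio of 0.

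The 3p strands do not share a seed, and their matches were TCAGCAG for miR-93-3p and ACTGCAG for miR-17-3p. Genes with a match to miR-93-3p alone had a median of −0.0047 (1671 genes), those with a match to miR-17-3p alone −0.0052 (1562 genes), and those with neither 0.0010 (8261 genes). A match to bases 2 to 8 of the shared 5p seed was held by 15.3% of all measured genes with a UTR. Among called genes with a UTR, 5 of the 18 higher ones held such a match and none of the 14 lower ones did, which are small counts. Among the 5 were Mettl7a3, Ttll7 and Apcdd1 with an 8-mer and Stox2 with a 7-mer, each under 50 normalized counts in both mimic libraries.

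Of 38 measured genes on the list of reported miR-17 family targets, 14 were higher in miR-93 EV and 24 lower by any amount, with a median of −0.025. Intervals excluded 1 for 2 higher and 5 lower, and none of these reached 1.5-fold. Over all measured genes, 8.57% were higher and 8.53% lower with such intervals, and 0.711% were at least 1.5-fold higher and 0.782% at least 1.5-fold lower. At 1000 to 3000 normalized counts, where the median member of the list lies, 12.5% of all genes were higher and 12.9% lower with such intervals. In the list the shares were 5.26% and 13.2%. Ccnd1, which encodes cyclin D1, had 1858 normalized counts in miR-93 EV and 2130 in miR-17 EV, with 2183 in control EV and 2551 in unexposed. Vegfa, the endothelial growth factor gene, had 935 in miR-93 EV and 846 in miR-17 EV, with 965 in control EV and 783 in unexposed. The loci of the miRNAs themselves gave few reads. Mir17hg had 42.5 in miR-93 EV and 35.5 in miR-17 EV, with 39.8 in control EV and 22.1 in unexposed, and its interval included 1. Mcm7 had 536 in miR-93 EV and 544 in miR-17 EV, with 549 in control EV and 559 in unexposed. The Mir17 model had 0.905 in miR-93 EV and 0 in miR-17 EV, and the Mir93 model 1.81 in miR-93 EV and 5.32 in miR-17 EV. These reads come from host loci, and the delivered mimics were not measured.

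Gene lists for macrophage functions were then read, of which 45 had at least 5 measured members. Over all 54 lists, none of the 1227 measured members was past 2-fold in either direction, against 0.330% of all measured genes. Of the 51 genes past 2-fold, 47 had 20 to 50 normalized counts, a level below the median member of each of the 45 lists. The 0.330% is therefore not matched to the level of the lists. All 45 medians lay within 0.1 of 0 on the log2 scale, between −0.082 for cholesterol synthesis and 0.070 for alternative activation markers. Counting error shrinks with level, so the share of all measured genes whose interval excluded 1 grew with it. It was 7.89% higher and 7.60% lower at 300 to 1000 normalized counts, 12.5% and 12.9% at 1000 to 3000, and 23.8% and 21.7% from 3000. Each list below is set beside all genes at the level of its median member. Its members spread over other levels too, and those above it have narrower intervals. The shares are therefore not matched member by member, and a gap between them can come from level alone. In these bulk libraries, fewer cells of a type and less RNA per cell cannot be told apart.

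**Figure D4:**
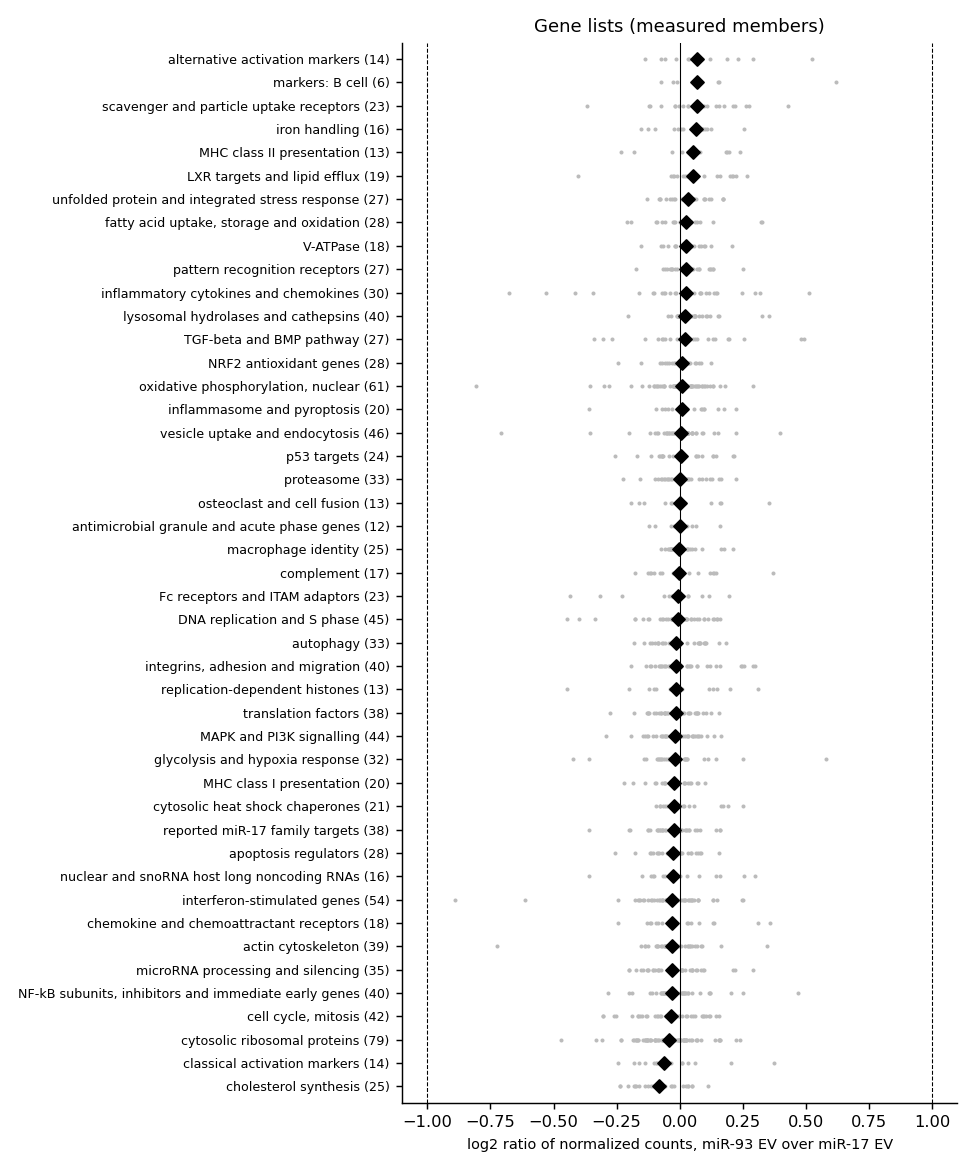
Log2 ratio of miR-93 EV over miR-17 EV (horizontal axis) for 45 gene lists, with measured members as grey points and the list median as a black diamond. Dashed lines mark 2-fold, and the number of measured members follows each name. All medians sit within 0.1 of 0, and no member reaches 2-fold.

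Sterol genes were read as 2 lists. Of 25 measured genes of cholesterol synthesis and uptake, 18 were lower in miR-93 EV by any amount, 5 were lower and 0 higher with intervals that excluded 1, and the median was −0.082. The 5 lower ones were 20% of the list, against 7.60% of all genes at 300 to 1000 normalized counts, where its median member lies. Srebf2, which encodes the transcription factor that drives the pathway, had 1714 normalized counts in miR-93 EV and 1935 in miR-17 EV, with 2146 in control EV and 2020 in unexposed. Scap, its escort protein gene, had 903 in miR-93 EV and 1024 in miR-17 EV, with 919 in control EV and 1003 in unexposed. Both were lowest in miR-93 EV. Fdft1, the squalene synthase gene, was also lower at −0.13, and its span overlaps that of Ctsb.

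The other list held genes of the liver X receptor (LXR), which drives sterol efflux. Of 19 measured, 14 were higher in miR-93 EV by any amount, 7 were higher and 1 lower with intervals that excluded 1, and the median was 0.050. The higher ones were 36.8% of the list and the lower one 5.26%, against 12.5% and 12.9% of all genes at 1000 to 3000 normalized counts. Nr1h2, which encodes LXR beta, had 1760 normalized counts in miR-93 EV and 1510 in miR-17 EV, with 1901 in control EV and 1830 in unexposed. Mertk, a receptor for apoptotic cells, had 2001 in miR-93 EV and 1730 in miR-17 EV, with 1959 in control EV and 2305 in unexposed. Lpcat3, a phospholipid-remodelling enzyme gene, had 903 in miR-93 EV and 782 in miR-17 EV, with 940 in control EV and 806 in unexposed. For Nr1h2, Mertk and Lpcat3 the miR-17 EV value was the lowest of the 4. Besides Abca1, the exporter gene Abcg1 was at 0.15 and Apoe, the lipoprotein gene, at 0.095. Lpl, the lipoprotein lipase gene, was the lower member at −0.033. None of these differences reached 1.2-fold, and Fdft1, Abcg1, Apoe and Lpl were named after their values were seen.

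Uptake and degradation genes differed in both directions, short of 2-fold. Of 23 measured scavenger and particle uptake receptors, 8 were higher and 3 lower with intervals that excluded 1, and the median was 0.069. The higher ones were 34.8% of the list, against 12.5% of all genes at 1000 to 3000 normalized counts. Colec12, a scavenger receptor gene, had 696 normalized counts in miR-93 EV and 580 in miR-17 EV, with 557 in control EV and 595 in unexposed. Axl, a receptor tyrosine kinase for apoptotic cells, had 1735 in miR-93 EV and 1536 in miR-17 EV, with 1859 in control EV and 1770 in unexposed. Of 40 lysosomal hydrolases and cathepsins, 12 were higher and 3 lower, with a median of 0.022. These were 30% and 7.5% of the list, against 23.8% and 21.7% of all genes from 3000. Ctsk, the collagen-degrading cathepsin K gene, had 376 in miR-93 EV and 294 in miR-17 EV, with 388 in control EV and 352 in unexposed. Of 16 iron-handling genes, 6 were higher and 3 lower, or 37.5% and 18.8%, with a median of 0.063 and a median member at 1000 to 3000. Slc40a1, the iron exporter ferroportin gene, had 1317 in miR-93 EV and 1103 in miR-17 EV, with 1070 in control EV and 1148 in unexposed. Among all genes with a mean of at least 1000 the intervals excluded 1 for 15.9% higher and 15.6% lower.

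Inflammatory genes were mixed. Of 54 measured interferon-stimulated genes, 3 were higher and 10 lower in miR-93 EV with intervals that excluded 1, and the median was −0.030. These were 5.56% and 18.5% of the list, against 12.5% and 12.9% of all genes at 1000 to 3000 normalized counts, so in both directions together the list was close to all genes. Tgtp1, an interferon-induced GTPase gene, had 33.5 normalized counts in miR-93 EV and 63.0 in miR-17 EV, with 41.0 in control EV and 72.7 in unexposed. Its span overlaps that of Gm12185. Gbp7, a guanylate-binding protein gene, had 97.8 in miR-93 EV and 150 in miR-17 EV, with 89.0 in control EV and 126 in unexposed. Ifih1, the sensor of double-stranded RNA also called MDA5, had 1145 in miR-93 EV and 962 in miR-17 EV, with 794 in control EV and 1141 in unexposed. Of 30 cytokines and chemokines, 7 were higher and 3 lower, with a median of 0.023. These were 23.3% and 10% of the list, against 7.89% and 7.60% of all genes at 300 to 1000. Spp1 and Pf4, both among the higher ones, lie above that level. Spp1, which encodes osteopontin, had 59824 in miR-93 EV and 50415 in miR-17 EV, with 51107 in control EV and 51527 in unexposed, and miR-93 EV alone was high. Pf4, the platelet factor 4 chemokine gene, had 2658 in miR-93 EV and 2134 in miR-17 EV, with 2306 in control EV and 2785 in unexposed. Il27, a cytokine subunit gene, had 71.5 in miR-93 EV and 104 in miR-17 EV, with 92.5 in control EV and 78.0 in unexposed.

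Markers of polarization lay on both sides. Of 14 measured classical activation markers, 2 were higher and 5 lower with intervals that excluded 1, and the median was −0.064. These were 14.3% and 35.7% of a short list, against 7.89% and 7.60% of all genes at 300 to 1000. Nos2, the inducible nitric oxide synthase gene, had 245 normalized counts in miR-93 EV and 189 in miR-17 EV, with 159 in control EV and 195 in unexposed. Fpr2, a formyl peptide receptor gene, had 1052 in miR-93 EV and 1247 in miR-17 EV, with 1196 in control EV and 1018 in unexposed. Of 14 alternative activation markers, also at 300 to 1000, 2 were higher and 2 lower, or 14.3% each way. The higher ones were F13a1 and Trem2, and Trem2, a lipid-sensing receptor gene, had 8734 in miR-93 EV and 8216 in miR-17 EV. Il4ra, the interleukin-4 receptor gene, was among the lower ones, with 2692 in miR-93 EV and 2961 in miR-17 EV.

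Translation and cytoskeleton genes also differed in both directions, short of 2-fold. Of 79 cytosolic ribosomal protein genes, 8 were higher and 22 lower with intervals that excluded 1, and the median was −0.043. These were 10.1% and 27.8% of the list, against 12.5% and 12.9% of all genes at 1000 to 3000 normalized counts. Of 38 translation factors, at the same level, 8 were higher and 7 lower, with a median of −0.017. Rpl17 had 402 normalized counts in miR-93 EV and 557 in miR-17 EV, with 384 in control EV and 294 in unexposed, and Rplp2 had 1337 in miR-93 EV and 1658 in miR-17 EV, with 1478 in control EV and 1328 in unexposed. Many pseudogenes resemble ribosomal protein genes closely, and pseudogene reads made up 8.24% of the miR-93 EV library and 7.96% of the miR-17 EV library. Their part in the result was not tested. Of 39 actin cytoskeleton genes, 6 were higher and 15 lower, with a median of −0.031. These were 15.4% and 38.5% of the list, against 23.8% and 21.7% of all genes from 3000, so in both directions together the list was near the share of all genes. Cobl led the lower ones, and Tpm4, a tropomyosin gene, had 6115 in miR-93 EV and 6801 in miR-17 EV. Tmsb10, which encodes an actin-sequestering thymosin, was higher, with 4667 in miR-93 EV and 3675 in miR-17 EV, and 2900 in control EV and 4686 in unexposed.

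Proliferation and signalling genes were read from 4 lists. Of 42 mitotic genes, 1 was higher and 3 lower with intervals that excluded 1, and of 45 replication genes 3 were higher and 4 lower. Over both directions these shares were near or below those of all genes at 300 to 1000 normalized counts. Espl1, the separase gene, had 266 normalized counts in miR-93 EV and 329 in miR-17 EV, with 465 in control EV and 334 in unexposed. Pcna, the replication clamp gene, had 3249 in miR-93 EV and 3674 in miR-17 EV, with 4333 in control EV and 3636 in unexposed. Of 44 MAPK and PI3K genes, 2 were higher and 10 lower, with a median of −0.019. These were 4.55% and 22.7% of the list, against 12.5% and 12.9% of all genes at 1000 to 3000. Spry2, a feedback inhibitor of this signalling, had 163 in miR-93 EV and 200 in miR-17 EV. Of 27 TGF-beta and BMP pathway genes, 6 were higher and 1 lower, with a median of 0.021. These were 22.2% and 3.70%, against 7.89% and 7.60% at 300 to 1000. Bmpr1a, a type I BMP receptor gene, had 108 in miR-93 EV and 76.3 in miR-17 EV, with 63.2 in control EV and 78.0 in unexposed, and Smad5, its signal transducer, was the lower member, with 319 in miR-93 EV and 384 in miR-17 EV.

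Metabolic and stress genes also differed in both directions, short of 2-fold. Of 61 nuclear genes of oxidative phosphorylation, 7 were higher and 7 lower in miR-93 EV with intervals that excluded 1, and the median was 0.0091. The share in each direction was 11.5%, near the 12.5% and 12.9% of all genes at 1000 to 3000 normalized counts. Atp5k, an ATP synthase subunit gene, had 49.8 normalized counts in miR-93 EV and 87.9 in miR-17 EV, with 72.6 in control EV and 53.7 in unexposed. Of 32 glycolysis and hypoxia genes, 5 were higher and 6 lower, with a median of −0.020. Their shares were 15.6% and 18.8%, against 12.5% and 12.9% of all genes at 1000 to 3000. Of 28 genes of fatty acid uptake, storage and oxidation, 4 were higher and 1 lower, with a median of 0.025. For this list the shares were 14.3% and 3.57%, against 7.89% and 7.60% of all genes at 300 to 1000. Hilpda, a lipid droplet inhibitor of lipolysis, had 473 in miR-93 EV and 378 in miR-17 EV, with 349 in control EV and 242 in unexposed, the highest in miR-93 EV. Of 28 antioxidant genes driven by NRF2, 5 were higher and 8 lower, with a median of 0.0097. Those shares, 17.9% and 28.6%, stood against 23.8% and 21.7% of all genes from 3000. Sod2, the mitochondrial superoxide dismutase gene, had 4798 in miR-93 EV and 5680 in miR-17 EV, with 4120 in control EV and 4887 in unexposed. Of 13 measured genes of MHC class II presentation, 2 were higher and 0 lower, with a median of 0.051. In this short list that is 15.4% and 0%, against 5.67% and 6.10% of all genes at 100 to 300. Cd74, the invariant chain gene, had 541 in miR-93 EV and 477 in miR-17 EV, with 813 in control EV and 584 in unexposed.

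Genes that take up vesicles and use miRNAs differed in both directions, short of 2-fold. Of 46 measured uptake and endocytosis genes, 6 were higher and 5 lower in miR-93 EV with intervals that excluded 1, and the median was 0.0061. The lower ones were 10.9% of the list, and both shares were near the 12.5% higher and 12.9% lower of all genes at 1000 to 3000 normalized counts. Tsg101, an ESCRT sorting gene, had 443 normalized counts in miR-93 EV and 379 in miR-17 EV, and Cd81, a tetraspanin gene of vesicle membranes, had 2744 in miR-93 EV and 3155 in miR-17 EV. Of 35 genes of miRNA processing and silencing, 3 were higher and 6 lower, with a median of −0.032. Their shares were 8.57% and 17.1%, against 7.89% and 7.60% of all genes at 300 to 1000. Prkra, which encodes a Dicer partner, had 406 in miR-93 EV and 332 in miR-17 EV. Dgcr8, the partner of Drosha in primary transcript cleavage, had 691 in miR-93 EV and 794 in miR-17 EV.

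Markers of other cell types were mostly near the floor. Of 89 in the table, 24 were measured, 13 higher and 11 lower in miR-93 EV by any amount. None of 9 epithelial markers was measured, and the mouse epithelial genes Krt18, Krt19 and Sftpc had 0 reads in both mimic libraries. The summed B cell markers were 2943 normalized counts in miR-93 EV and 2671 in miR-17 EV, with 3156 in control EV and 3093 in unexposed. The summed neutrophil markers were 2328 in miR-93 EV and 2415 in miR-17 EV, with 2116 in control EV and 2347 in unexposed. Igkc, the immunoglobulin kappa constant gene, had 112 in miR-93 EV and 72.8 in miR-17 EV, with 56.2 in control EV and 73.8 in unexposed, the highest in miR-93 EV. The B cell marker Ms4a1 had 6.34 in miR-93 EV and 6.21 in miR-17 EV. The part of other cells in the differences above was not tested.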

How the data were processed

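The authors' deposited table gave the count of reads per gene for 4 libraries, as whole numbers over whole gene spans. It also gave average coverage per base, a signal not scaled to depth, and GC content in percent, per the file headers. A further deposited table gave the authors' log2 values, centred for each gene. The submitters' processing notes name mm10 and DESeq. The sources used here do not name the aligner, the annotation or the use of strand, so overlapping genes and near-identical copies can share reads. Per the labels, an Ion Total RNA-Seq kit was used.

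Counts were scaled by median-of-ratios size factors over the 4 libraries, 1.10 for miR-93 EV, 1.13 for miR-17 EV, 0.854 for control EV and 0.949 for unexposed. Log2 ratios used normalized counts plus 1, and calls used the ratio without that addition. Intervals are 95% Clopper-Pearson intervals of the ratio of counts. Calculations used Python 3.11.15 with scipy 1.17.1, and edgeR 4.0.16 for TMM factors only. The rule was checked on simulated data.

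Named genes were up to 15 per direction past 2-fold that averaged 50 or more normalized counts and had a real symbol, up to 3 per list with intervals that exclude 1, the most counted genes and the miRNA loci. The members and the 54 gene lists were chosen with earlier results of these data known. List genes were matched by symbol and, for 37 genes, by Ensembl identifier to an older symbol. None of the 15 genes of the mitochondrial genome was found in the counts used here, so they were not analysed. A few genes are not reported here.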

Additional observations from a re-analysis of the deposited data

How the results depend on the processing

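Counts of genes past 2-fold depended on the filter and on the measure. Against 29 higher and 22 lower genes, average coverage gave 64 higher and 45 lower. The authors' deposited log2 values gave 256 higher and 210 lower. No interval was required for those values, so their counts are not like for like with the others. A minimum mean of 10 normalized counts gave 77 higher and 77 lower, no minimum 166 and 161, and a minimum of 100 gave 0 higher and 3 lower. A threshold of 1.5-fold gave 110 higher and 121 lower. Other scalings (mimic libraries alone, TMM, total counts), a GC correction, leaving out pseudogenes and overlapped genes, and the ratio of counts plus 1, which was added after seeing the data, stayed within 1.5 times for both directions. The scalings moved the median of all genes by less than 0.1. List medians kept their sign under every scaling for 37 of 45 lists and in every alternative for 30 of 45. The median of genes with an 8-mer was −0.0030 with a GC correction and −0.0019 with a minimum of 100, against 0.0017, a change of sign. Changes of sign were counted only for named genes whose interval excluded 1. Among the 150 named genes, 12 of that kind had authors' deposited log2 differences of the opposite sign, and the cause was not tested. They were 0.24 for Nlrp1b, −0.065 for Nlrc4, −0.024 for Casp4, 0.0044 for Tap2, 0.00028 for Pdia6, −0.19 for Psme1, 1.42 for Tmem56, 0.014 for Lrrk1, 0.63 for AC115697.1, 0.79 for Gnb1l, 0.080 for Kpna1 and −0.69 for AC154650.1. No paired analysis was possible because each group was 1 library. Depth limits genes under 50 normalized counts most, where the log2 ratio had a standard deviation of 0.403.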
